A study of Mus musculus with 44 samples.

Results

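The class 3 semaphorins and their neuropilin receptors were described across mammary fibroblasts that had been sorted by CD26 from control glands and from tumors. The 9 genes Sema3a, Sema3b, Sema3c, Sema3d, Sema3e, Sema3f, Sema3g, Nrp1 and Nrp2 were taken by their symbols from the deposited table of 55486 genes, and all 9 had enough counts to be tested. Fibroblasts (EpCAM-/CD49f-/CD31-/CD45- cells) came from female En1-Cre;mTmG mice, in which the Engrailed-1 driver of Cre turns on GFP in cells of the En1 lineage. Around weaning, with their own fat pads left in place, these recipients had been given pieces of control, WB1P (WapCre;Brca1F/F;Trp53F/F) or WB1P-Myc (WB1P with Col1a1 invCAG-Myc-IRES-Luc) mammary gland. The control labels read wildtype, and the paper names WapCre-negative mice with Cdh1F/F and PtenF/F as donors of control tissue for these recipients. All donor models were on the FVB/n background. The Wap promoter drives Cre in mammary epithelium of the WB1P and WB1P-Myc donor tissue. Normal fibroblasts (NFs) stand for the control and cancer-associated fibroblasts (CAFs) for the tumor samples. The paper describes the WB1P and WB1P-Myc tumors of these fibroblasts as end-stage. The label of 2 WB1P-Myc mice, 23 and 69, carries the mark 8x8, and the age of each mouse at sorting is not in the labels. The paper's methods use a tumor size of 8x8 mm for the advanced stage, before end-stage, but the labels do not say what the mark stands for. Each control label carries a pair of mouse numbers (82/83, 49/52 and 44/46) without saying whether cells were pooled, and each pair was counted as 1 unit.

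Of 44 libraries, 12 were control, 16 WB1P and 16 WB1P-Myc, with 5790599 to 15240328 counts in a library. The counts of the libraries of a mouse in a CD26 class were summed, which gave 3 control sums in each class, 5 CD26- and 4 CD26+ WB1P sums, and 5 WB1P-Myc sums in each class. WB1P mouse 10 had no CD26+ library. Within a class, En1+ and En1- cells had been sorted into separate libraries, and every control sum held both. In CD26- cells WB1P mouse 10 had only the En1+ library, and WB1P-Myc mice 21 and 95 only the En1- one. In CD26+ cells WB1P mouse 12 and WB1P-Myc mice 67 and 95 had only the En1+ library. The En1 sorts were thus not balanced between tumor and control sums. Levels are in CPM, gene counts scaled to the total of the sum, and levels of different genes are set against each other only as CPM per kilobase of exon. A gene was called when its false discovery rate (FDR) was under 0.05 over the 16601 genes tested with edgeR's quasi-likelihood test, and fold changes are log2 values with their standard error (SE). Dpp4, which encodes CD26, checked the sort and averaged 546.5 CPM in CD26+ and 5.28 CPM in CD26- NFs, and it was higher in the CD26+ cells of every one of the 12 mice or control pairs with both classes. Markers of fibroblasts summed to 20770 to 52590 CPM in every sum, while the epithelial, endothelial and immune lists reached at most 174.5, 83.6 and 212 CPM. The pericyte list (Rgs5, Notch3, Kcnj8, Abcc9, Higd1b and Mcam, with all 6 detected in each group) moved with the groups. It summed to 194 to 381 CPM in CD26- NFs, 1427 to 4898 CPM in WB1P CD26- CAFs and 2474 to 10060 CPM in WB1P-Myc CD26- CAFs, against 114 to 252 CPM in the CD26+ groups. Skeletal muscle markers (Acta1, Ckm and Myh4) summed to 53.6 to 251.5 CPM in CD26- NFs and to at most 62.4 CPM in the other groups. In sorted bulk samples, fewer cells of a type and less RNA per cell cannot be told apart.

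Class 3 semaphorins are secreted guidance proteins. They bind a neuropilin, which has only a short cytoplasmic tail, and signal through a plexin in the same receptor complex. They are best known for repelling growing axons, and in other tissues they steer vessel growth and cell migration. Neuropilins also bind members of the VEGF family, for which some semaphorins compete, and proprotein convertases cleave semaphorins and so change their activity. Sema3a acts mainly through Nrp1 and Sema3f mainly through Nrp2, whereas Sema3e can signal through Plxnd1 without a neuropilin.

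Sema3d, Sema3a, Sema3e and Sema3c lie in this order on chromosome 5, all on the plus strand, at 12383385 to 12588948, 13125414 to 13602565, 14025276 to 14256689 and 17574281 to 17730268 on GRCm38. The gaps between them measure 0.537, 0.423 and 3.32 Mb. Sema3b (107597674 to 107609229) and Sema3f (107681500 to 107710475) lie 72270 bases apart on the minus strand of chromosome 9. Sema3g lies on chromosome 14 (31217860 to 31230352), Nrp1 on chromosome 8 (128358604 to 128503363) and Nrp2 on chromosome 1 (62703285 to 62818695), each on the plus strand. Genes that overlap the members in the annotation held at most 27 counts in a library.

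RefSeq promoter windows (GRCm38.p6) were found for 7 members, and the 250 bases before each RefSeq start were searched. Those of Sema3d and Sema3e are shown because both genes were higher in CD26+ fibroblasts in every tissue, and that of Nrp2 because this gene went the opposite way in CAFs. The Nrp2 window is shown up to the first annotated exon base, as 218 bases. Capitals mark matches found on either strand. The search covered the letters TATAAA of the TATA box. For the CCAAT box its own letters were used. The GC box was searched as GGGCGG. For an AP-1 site the letters were TGANTCA. An E-box was any CANNTG. The first runs from chr5:12382916-12383165, the second from chr5:14025026-14025275 and the third from chr1:62703067-62703284, all on the plus strand.
Sema3d: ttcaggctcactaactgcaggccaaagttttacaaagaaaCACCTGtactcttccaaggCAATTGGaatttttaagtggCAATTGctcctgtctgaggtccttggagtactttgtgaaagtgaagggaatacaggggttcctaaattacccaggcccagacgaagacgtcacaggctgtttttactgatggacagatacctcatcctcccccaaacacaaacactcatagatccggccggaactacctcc
Sema3e: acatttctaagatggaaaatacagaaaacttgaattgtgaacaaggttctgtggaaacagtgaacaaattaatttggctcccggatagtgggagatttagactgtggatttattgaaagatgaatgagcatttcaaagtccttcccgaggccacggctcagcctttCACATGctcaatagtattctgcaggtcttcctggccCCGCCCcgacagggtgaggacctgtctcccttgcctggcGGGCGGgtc
Nrp2: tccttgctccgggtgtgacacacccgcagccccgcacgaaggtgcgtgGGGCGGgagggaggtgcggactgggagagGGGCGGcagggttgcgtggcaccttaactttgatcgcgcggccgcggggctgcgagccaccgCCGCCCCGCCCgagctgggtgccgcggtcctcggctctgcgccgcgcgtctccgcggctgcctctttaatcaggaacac
The Sema3d window holds 3 E-boxes and 1 CCAAT box, which overlaps one of them. The Sema3e window holds 2 GC boxes and 1 E-box. In its 250 bases the Nrp2 window holds 5 GC boxes, 32 CpG and no E-box. Among 32851 RefSeq windows of the same length, 66.2% held an E-box, 33.8% a CCAAT box and 32.7% a GC box, the median CpG count was 6, and Sema3d and Sema3e had 4 and 7. None of these 3 windows held a TATA box or an AP-1 site, which 12.4% and 6.7% of all windows did. A match in a window is a description only. The RefSeq start equals the gene start in the annotation for Sema3e, lies 32 bases after it for Nrp2, and for Sema3d it lies before it.

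The levels of all 9 genes in each mouse and CD26 class are plotted first.

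**Figure D1:**
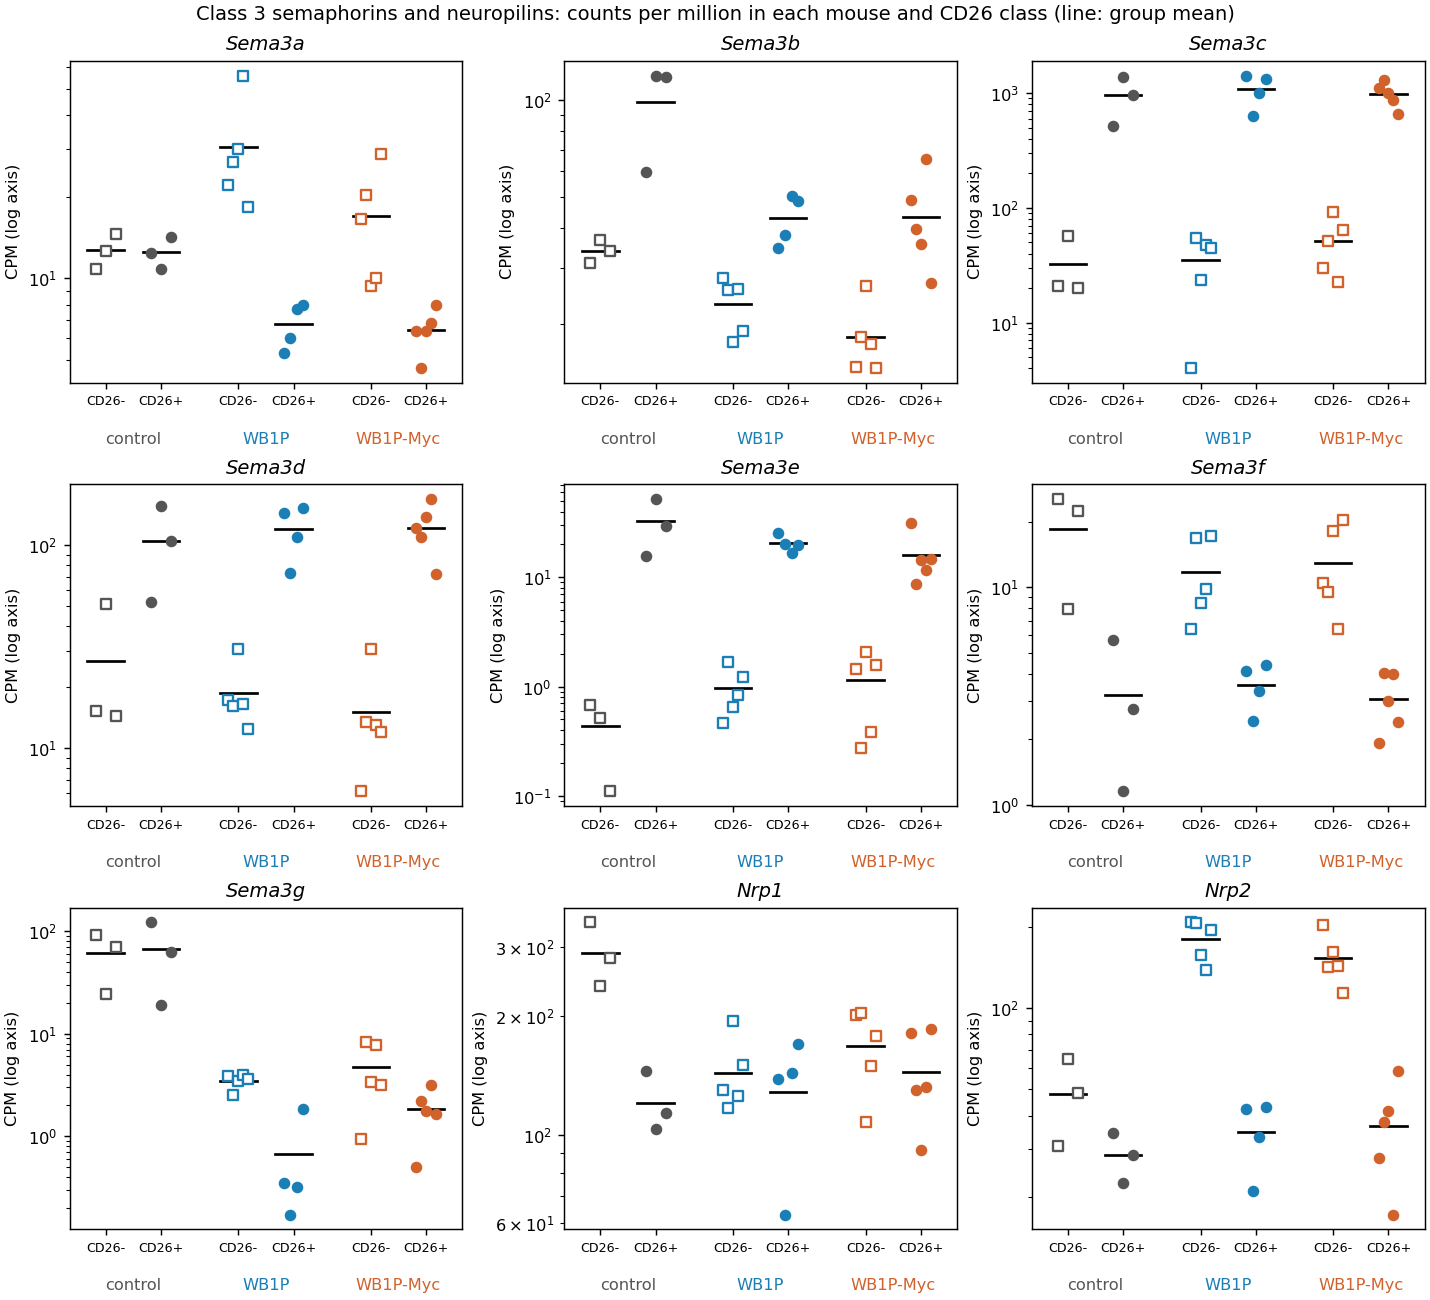
Each panel plots the scaled counts (CPM, log axis) of a gene, with open squares for CD26- and filled circles for CD26+ sums of a mouse or control pair, by control, WB1P and WB1P-Myc, and a black line at the group mean. Sema3c averages 957 CPM in CD26+ and 32.6 CPM in CD26- control fibroblasts, Nrp2 reaches 181 CPM in WB1P CD26- cells, and Sema3g lies between 18.9 and 120.9 CPM in control sums and at or under 8.39 CPM in tumor sums.

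Per kilobase, Sema3c was the most abundant member in CD26+ fibroblasts of all tissues, with 134 CPM per kb ± 61.4 (SD, n = 3) in control, 153.5 ± 49.8 (n = 4) in WB1P and 138.7 ± 34.6 (n = 5) in WB1P-Myc. Its lowest CD26+ sum, at 72.0 CPM per kb, was above the highest sum of any other member in CD26+ cells, which was Sema3g in a control pair at 26.6 CPM per kb. Below it in CD26+ NFs came Sema3b (20.7 CPM per kb), Sema3g (14.8), Nrp1 (12.4) and Sema3d (12.2), whose ranges overlapped. Sema3e (3.50) and Nrp2 (2.41) followed, also with overlapping ranges, and Sema3a (0.898) and Sema3f (0.614) were lowest. In CD26- NFs the order was led by a receptor, Nrp1, at 29.5 CPM per kb ± 5.47 (SD, n = 3), ahead of Sema3g (13.5 CPM per kb), Sema3b (7.06), Sema3c (4.57) and Nrp2 (4.06), and Sema3e closed it at 0.0466 CPM per kb. In CD26- CAFs both receptors led. Nrp2 had 15.3 and Nrp1 14.7 CPM per kb in WB1P, and in WB1P-Myc Nrp1 had 17.2 and Nrp2 12.9, with overlapping ranges in both. In CD26+ CAFs Nrp1 and Sema3d came after Sema3c, with 13.2 and 14.0 CPM per kb in WB1P and 14.7 and 14.2 in WB1P-Myc, again overlapping.

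The first comparison asked how CD26+ and CD26- fibroblasts differed in each tissue. Sema3b, Sema3c, Sema3d and Sema3e were higher in CD26+ fibroblasts in control, WB1P and WB1P-Myc alike, and Sema3f was lower in all of them. Nrp1 was lower in CD26+ cells in control, and Sema3a and Nrp2 were lower in CD26+ cells in both tumor types. In control, 4 members were higher and 2 lower, where 2.67% of all genes tested were higher and 1.49% lower. In WB1P, 4 were higher and 4 lower, against 13.0% of genes in either direction. In WB1P-Myc, 4 were higher and 3 lower, against 9.29% and 10.7%. The median fold change of the 9 members was 0.22, -0.02 and -0.05 in these comparisons, and that of all genes -0.02, 0.01 and -0.01.

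Sema3c, a guidance factor of heart and vessel development, was the ligand with the highest level per kilobase in CD26+ cells, as given above. In NFs it had 514, 1391 and 967 CPM in the CD26+ sums of pairs 82/83, 49/52 and 44/46, and 21.0, 56.7 and 20.1 CPM in their CD26- sums. The classes did not overlap, and the fold change was 4.93 ± 0.73 (FDR = 0.000191). In WB1P the CD26+ mice 93, 12, 14 and 35 had 1420, 632, 1011 and 1321 CPM, and the CD26- mice 10, 93, 12, 14 and 35 had 4.02, 54.2, 23.7, 47.6 and 44.5 CPM. The fold change there was 5.10 ± 0.58 (FDR = 1.78e-06). In WB1P-Myc mice 21, 67, 95, 23 and 69 it had 1114, 1312, 996.5, 875.7 and 654.5 CPM in CD26+ cells and 29.8, 51.6, 91.8, 22.8 and 63.7 CPM in CD26- cells, a fold change of 4.44 ± 0.55 (FDR = 4.84e-06). In all 12 mice or pairs with both classes Sema3c was higher in CD26+ cells. Its mean level in CD26- cells was 3.41%, 3.18% and 5.24% of that in CD26+ cells in control, WB1P and WB1P-Myc, and the same share for Dpp4 was 0.967%, 1.31% and 2.21%. The part of CD26+ cells left in the CD26- sort in these levels was not tested.

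Sema3e, the ligand of Plxnd1, was at 15.6, 52.1 and 29.8 CPM in CD26+ NFs and at 0.674, 0.513 and 0.110 CPM in CD26- NFs, where the libraries held 0 to 12 counts. Its fold change of 6.26 ± 0.76 (FDR = 2.03e-05) was the largest of any member between CD26 classes. In WB1P it had 25.6, 20.2, 16.7 and 19.8 CPM in CD26+ mice 93, 12, 14 and 35 and at most 1.67 CPM in CD26- mice, with a fold change of 4.49 ± 0.55 (FDR = 4.21e-06). In WB1P-Myc the CD26+ level was 8.68 to 31.6 CPM (median 14.4) and the CD26- level 0.275 to 2.09 CPM, with a fold change of 4.13 ± 0.54 (FDR = 8.35e-06). The CD26- mean was 1.33% of the CD26+ mean in control, 4.71% in WB1P and 7.14% in WB1P-Myc.

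Sema3d, known for guiding cells of the developing veins and heart, had 52.6, 156 and 104.7 CPM in CD26+ NFs and 15.3, 51.2 and 14.4 CPM in CD26- NFs. The lowest CD26+ control sum thus lay just above the highest CD26- one, and the fold change was 2.01 ± 0.53 (FDR = 0.0305). This call was lost when the control groups were fitted alone (FDR = 0.199), in the En1- libraries (FDR = 0.0612) and without pair 82/83 (FDR = 0.0936) or pair 44/46 (FDR = 0.330). In tumors the classes did not overlap. WB1P had 73.2 to 151.9 CPM in CD26+ and 12.5 to 30.9 CPM in CD26- mice (fold change 2.82 ± 0.44, FDR = 5.85e-05), and WB1P-Myc 72.3 to 168.8 and 6.14 to 30.9 CPM (3.21 ± 0.43, FDR = 1.26e-05). The test of the CD26 difference itself did not call Sema3d between tumors and control.

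Sema3b, which acts through both neuropilins, differed less between the classes. It had 59.6, 119.3 and 117.9 CPM in CD26+ NFs against 30.9, 36.5 and 33.9 CPM in CD26- NFs (fold change 1.61 ± 0.29, FDR = 0.00177). Without pair 44/46 the FDR was 0.0704. The fold change was 0.99 ± 0.24 (FDR = 0.00343) in WB1P and 1.44 ± 0.23 (FDR = 7.90e-05) in WB1P-Myc, with no overlap between the classes in either tumor type.

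Sema3f, the main ligand of Nrp2, went the other way. In NFs its CD26- sums held 25.4, 7.94 and 22.4 CPM and its CD26+ sums 5.68, 1.15 and 2.75 CPM for pairs 82/83, 49/52 and 44/46, so that pair 49/52 was lowest in both. The fold change was -2.45 ± 0.54 (FDR = 0.00946), and the call was lost when control was fitted alone (FDR = 0.158) or without pair 44/46 (FDR = 0.155). In WB1P the CD26- level was 6.42 to 17.1 CPM and the CD26+ level 2.42 to 4.38 CPM (-1.57 ± 0.45, FDR = 0.0124). In WB1P-Myc it was 6.38 to 20.2 and 1.92 to 4.01 CPM (-1.90 ± 0.42, FDR = 0.00220). The tumor calls missed the threshold in 1 set of libraries each, at FDR = 0.0604 in the En1- libraries of WB1P and FDR = 0.0523 in the En1+ libraries of WB1P-Myc. In CD26- CAFs the pericyte markers given above were also higher than in CD26+ CAFs. In CD26- NFs they summed to 194 to 381 CPM. Their part in the Sema3f differences was not tested.

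Sema3a, the founding member that collapses growth cones through Nrp1, did not separate the classes in NFs, with 10.8, 12.6 and 14.5 CPM in CD26- and 12.4, 10.8 and 14.1 CPM in CD26+ sums (fold change 0.05 ± 0.36, FDR = 0.988). In WB1P the CD26- mice 10, 93, 12, 14 and 35 had 22.1, 26.8, 29.9, 55.8 and 18.3 CPM, and the CD26+ mice 93, 12, 14 and 35 had 5.32, 6.04, 7.74 and 7.97 CPM. All CD26- sums were above all CD26+ sums, and the fold change was -2.07 ± 0.32 (FDR = 6.22e-05). In WB1P-Myc the CD26- level was 9.40 to 28.8 CPM and the CD26+ level 4.67 to 7.98 CPM (-1.22 ± 0.29, FDR = 0.00411, and FDR = 0.0539 in the En1- libraries).

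Sema3g, a semaphorin of vessel walls and fat that acts mainly through Nrp2, overlapped between the classes of NFs (fold change 0.22 ± 0.69, FDR = 0.968). In CAFs it was low in both. In WB1P it had 2.51 to 3.97 CPM in CD26- and 0.173 to 1.85 CPM in CD26+ mice (-2.08 ± 0.70, FDR = 0.0314), where CD26+ libraries held 1 to 32 counts. That call was lost in the En1- libraries (FDR = 0.411) and without mouse 93, 12 or 14 (FDR = 0.0918, 0.0927 and 0.142). In WB1P-Myc the fold change was -1.26 ± 0.59 (FDR = 0.142), and -1.13 with mouse as a block (FDR = 0.0162).

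Of the receptors, Nrp1 was at 345, 239 and 281 CPM in CD26- NFs and at 145, 103.7 and 114 CPM in CD26+ NFs. The classes did not overlap, and the fold change was -1.18 ± 0.33 (FDR = 0.0407). Leaving out any of the control pairs lost this call (FDR = 0.132 to 0.278). In tumors Nrp1 was not called, with a fold change of -0.02 ± 0.27 (FDR = 0.961) in WB1P and -0.05 ± 0.25 (FDR = 0.931) in WB1P-Myc. The CD26+ and CD26- ranges overlapped there, at 62.9 to 170.1 and 117 to 195 CPM in WB1P. Nrp2, the receptor of Sema3f and also of VEGF-C, had 31.0, 64.8 and 48.4 CPM in CD26- and 34.5, 22.6 and 28.5 CPM in CD26+ NFs (-0.67 ± 0.34, FDR = 0.400). In WB1P its CD26- mice had 207.6, 206.7, 157.4, 138.3 and 194.9 CPM and its CD26+ mice 42.2, 21.1, 33.4 and 43.0 CPM (-2.23 ± 0.30, FDR = 1.15e-05). In WB1P-Myc it had 203.7, 142, 161, 143.4 and 114 CPM in CD26- and 28.0, 37.8, 41.7, 17.2 and 58.5 CPM in CD26+ mice 21, 67, 95, 23 and 69 (-1.89 ± 0.27, FDR = 2.59e-05). No CD26+ tumor sum reached the lowest CD26- tumor sum.

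**Figure D2:**
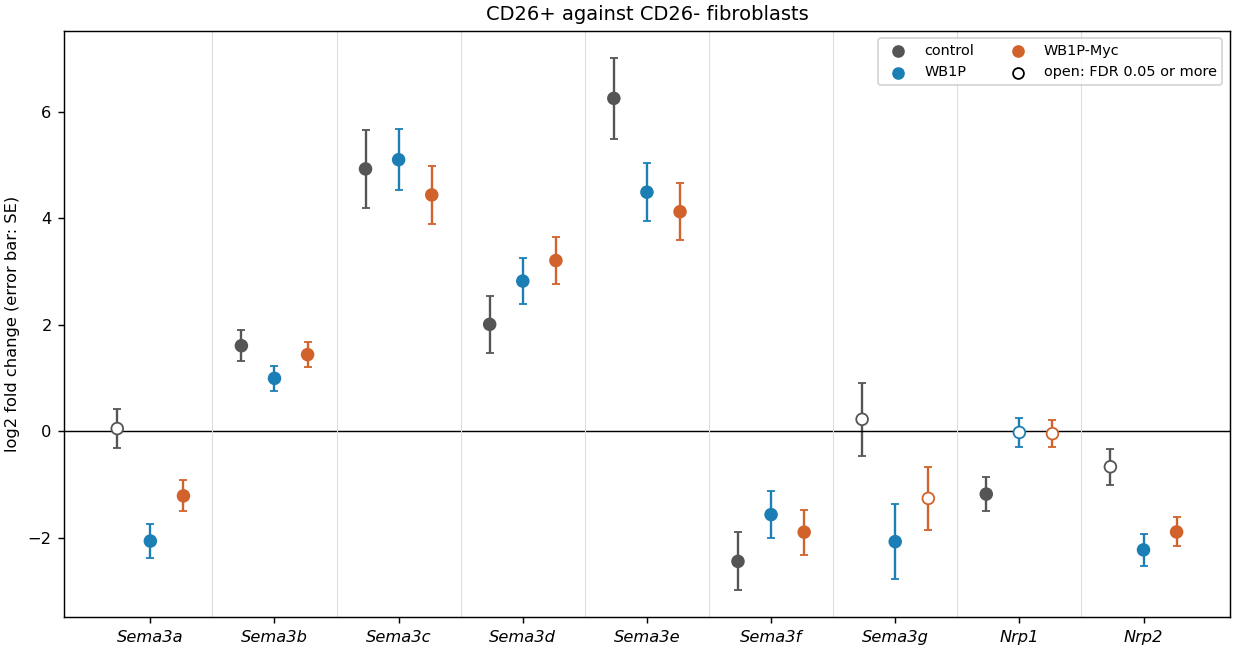
The log2 fold change of CD26+ against CD26- fibroblasts (vertical axis, error bar SE) is plotted for each member in control, WB1P and WB1P-Myc, with open circles where the FDR was 0.05 or more. Sema3b to Sema3e lie above 0 in all tissues and Sema3f below, while Sema3a moves from 0.05 in control to -2.07 in WB1P and Nrp1 from -1.18 in control to -0.02.

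The next comparison set CAFs against NFs within each CD26 class. Sema3g was lower in CAFs in all 4 comparisons, Nrp2 was higher in CD26- CAFs and Nrp1 lower in CD26- CAFs of both tumor types. Sema3b was lower in 3 of the 4 comparisons, and Sema3a was higher in WB1P CD26- CAFs. Sema3c, Sema3d, Sema3e and Sema3f were called in none of the 4. In WB1P CD26- CAFs 2 members were higher and 2 lower, where 17.6% of all genes were higher and 17.8% lower. In WB1P-Myc CD26- CAFs 1 was higher and 3 were lower, against 19.1% and 17.5%. In CD26+ CAFs none was higher, against 17.4% of genes in either tumor type. There 2 were lower in WB1P, against 16.1%, and 3 in WB1P-Myc, against 17.3%. The comparisons within a CD26 class share their 3 control sums.

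Sema3g fell most. It had 90.3, 24.3 and 69.3 CPM in CD26- NFs and 120.9, 18.9 and 61.9 CPM in CD26+ NFs of pairs 82/83, 49/52 and 44/46, so that pair 49/52 was lowest in both classes. In WB1P its 5 CD26- mice had 3.87, 2.51, 3.43, 3.97 and 3.65 CPM and its 4 CD26+ mice 0.350, 0.173, 0.318 and 1.85 CPM. In WB1P-Myc it had 0.938, 8.39, 3.38, 7.75 and 3.15 CPM in CD26- and 0.5, 2.23, 1.75, 3.13 and 1.65 CPM in CD26+ mice. Every tumor sum was under every control sum. The fold change was -4.02 ± 0.64 (FDR = 5.51e-05) in WB1P and -3.65 ± 0.63 (FDR = 0.000157) in WB1P-Myc CD26- cells, and -6.32 ± 0.80 (FDR = 1.01e-05) and -5.14 ± 0.68 (FDR = 1.60e-05) in CD26+ cells. Endothelial cells also make Sema3g, and some endothelial markers were lower in the same comparisons. Of the 6 markers (Pecam1, Cdh5, Tie1, Kdr, Emcn and Cldn5), 4 were lower and 1 higher in WB1P CD26- CAFs, 1 was lower and 1 higher in WB1P-Myc CD26- CAFs, and 4 were lower and 0 higher in the CD26+ CAFs of each tumor type. Their median fold change was -1.87 and -1.05 in CD26- and -2.57 and -2.37 in CD26+ cells of WB1P and WB1P-Myc. Cdh5, which encodes VE-cadherin, averaged 6.18 CPM in CD26+ NFs and 0.758 and 0.910 CPM in CD26+ CAFs of WB1P and WB1P-Myc. The summed list overlapped, at 22.9 to 74.6 CPM in NFs and 8.83 to 83.6 CPM in CAFs, where Kdr (20.2 and 16.4 CPM in CD26+ CAFs) and Emcn (23.7 CPM in WB1P-Myc CD26- CAFs) made up much of it. The 3 adipocyte markers (Adipoq, Plin1 and Cidec) summed to 0.346 to 9.48 CPM in NFs and 0 to 11.8 CPM in CAFs. In CD26- CAFs 1 of them was lower in each tumor type and in CD26+ CAFs 0 were, with median fold changes of -1.22, -0.37, -2.77 and -1.19. The part of either cell type in the Sema3g difference was not tested.

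Nrp2 rose in CD26- CAFs from the control values above, by 2.06 ± 0.33 (FDR = 5.89e-05) in WB1P and by 1.65 ± 0.32 (FDR = 0.000514) in WB1P-Myc. The lowest CD26- tumor mouse had 114 CPM and the highest control pair 64.8 CPM. In CD26+ cells its fold change was 0.49 ± 0.32 (FDR = 0.242) in WB1P and 0.43 ± 0.31 (FDR = 0.287) in WB1P-Myc. Nrp1 fell by 0.88 ± 0.28 on the log2 scale in WB1P CD26- CAFs (FDR = 0.0185) and by 0.79 ± 0.28 in WB1P-Myc (FDR = 0.0323). All 10 CD26- tumor sums of Nrp1, at 108 to 204 CPM, lay under the lowest control sum of 239 CPM. The WB1P call was lost without pair 82/83 (FDR = 0.102) or pair 44/46 (FDR = 0.0502). The WB1P-Myc call was lost in the En1+ libraries (FDR = 0.202), without the 2 mice marked 8x8 (FDR = 0.0975), without pair 82/83 (FDR = 0.154), pair 44/46 (FDR = 0.0757), mouse 95 (FDR = 0.0709) or mouse 23 (FDR = 0.0580), and without the filter on low counts (FDR = 0.0549). In CD26+ cells the fold change of Nrp1 was 0.28 ± 0.30 (FDR = 0.504) and 0.34 ± 0.29 (FDR = 0.371).

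The pericyte markers rose in the same CD26- CAFs as Nrp2. In WB1P, mouse 93 had the lowest pericyte sum (1427 CPM) with 206.7 CPM of Nrp2, and mouse 10 the highest (4898 CPM) with 207.6 CPM of Nrp2. Mice 14, 12 and 35 had sums of 1552, 1859 and 2262 CPM with 138.3, 157.4 and 194.9 CPM of Nrp2. Apart from mouse 93, Nrp2 thus followed the order of the pericyte sums. In WB1P-Myc, mouse 69 had the lowest (2474 CPM) with 114 CPM of Nrp2, and mouse 21 the highest (10060 CPM) with 203.7 CPM. Mice 67, 23 and 95 had sums of 2912, 3708 and 4480 CPM with 142, 143.4 and 161 CPM of Nrp2. Nrp2 followed the order of the pericyte sums in all WB1P-Myc CD26- mice. The CD26- sums of mice 10 and 21 each held 1 library, of 1 En1 sort. The part of the pericyte markers in the Nrp2 and Nrp1 differences was not tested beyond these values.

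Sema3a rose in WB1P CD26- CAFs by 1.41 ± 0.34 (FDR = 0.00295), where all 5 mice (18.3 to 55.8 CPM) were above all control pairs (10.8 to 14.5 CPM). In WB1P-Myc CD26- CAFs the fold change was 0.42 ± 0.33 (FDR = 0.330). There mice 95 and 23 had 9.40 and 10.0 CPM, under all control pairs, and the other 3 had 16.5 to 28.8 CPM, above them. Pericyte markers were higher in the same CD26- CAFs. In WB1P the mouse with the most Sema3a, 14, had a pericyte sum of 1552 CPM, and the mouse with the highest sum, 10 (4898 CPM), had 22.1 CPM of Sema3a. In WB1P-Myc the lowest sum, in mouse 69 (2474 CPM), came with the most Sema3a, 28.8 CPM. The part of these markers in the Sema3a difference was not tested beyond these values. In CD26+ CAFs it was -0.70 ± 0.34 (FDR = 0.117) in WB1P and -0.84 ± 0.33 (FDR = 0.0475) in WB1P-Myc, and all 9 CD26+ tumor sums, at 4.67 to 7.98 CPM, were under the lowest control sum of 10.8 CPM. The WB1P-Myc call is marginal, and it was lost in 10 of the alternative fits, including the leaving out of any 1 control pair (FDR = 0.0736 to 0.164) or of mouse 21, 67, 95 or 23 (FDR = 0.0532 to 0.101). Sema3b fell in CD26+ CAFs by 1.02 ± 0.27 (FDR = 0.00602) in WB1P and by 1.07 ± 0.25 (FDR = 0.00277) in WB1P-Myc, from 59.6, 119.3 and 117.9 CPM in control to 34.7 to 50.2 and 26.8 to 65.5 CPM. In CD26- CAFs it fell by 0.91 ± 0.25 (FDR = 0.00813) in WB1P-Myc, to 14.6 to 26.3 CPM, and its fold change was -0.41 ± 0.26 (FDR = 0.219) in WB1P.

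The ligands called in none of these comparisons had wide spreads in NFs. Sema3c averaged 957 CPM ± 438 (SD, n = 3) in CD26+ NFs, 1096 ± 355 (n = 4) in WB1P and 990.5 ± 247 (n = 5) in WB1P-Myc CD26+ CAFs. Sema3d averaged 104.4 ± 51.7, 120.0 ± 36.1 and 121.9 ± 35.5 CPM in the same groups, and Sema3e 32.5 ± 18.4, 20.6 ± 3.68 and 16.2 ± 8.95 CPM. Sema3e in CD26- cells had fold changes of 1.33 ± 0.67 (FDR = 0.126) in WB1P and 1.27 ± 0.68 (FDR = 0.144) in WB1P-Myc, from at most 12 counts in a control library. Sema3d had -0.86 ± 0.46 (FDR = 0.143) in WB1P-Myc CD26- cells, which was 0.00 without control pair 49/52 (FDR = 0.997) and was called without mouse 95 (-1.23, FDR = 0.0479). Sema3f averaged 18.6 ± 9.31 CPM in CD26- NFs, 11.7 ± 4.94 CPM in WB1P and 12.9 ± 5.92 CPM in WB1P-Myc CD26- CAFs.

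**Figure D3:**
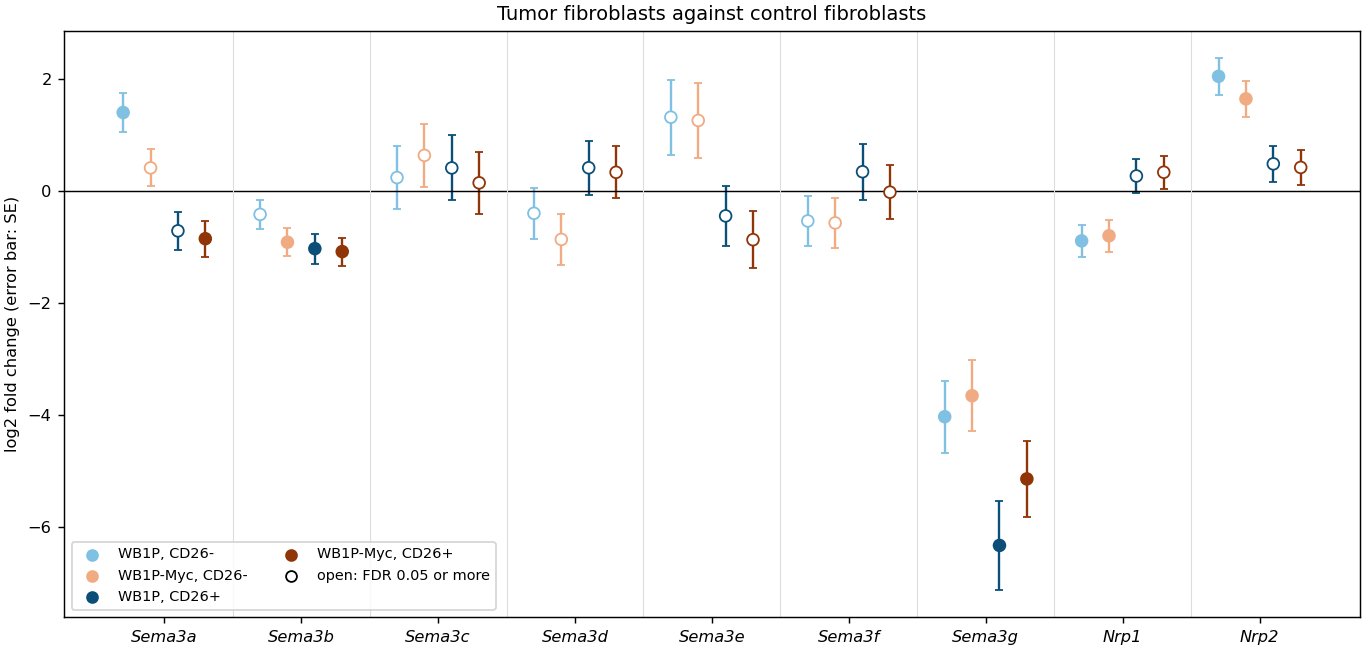
The log2 fold change of tumor against control fibroblasts (vertical axis, error bar SE) is plotted for each member by tumor type and CD26 class, with open circles where the FDR was 0.05 or more. Sema3g lies between -3.65 and -6.32, Nrp2 at 2.06 and 1.65 in CD26- cells, and Sema3c, Sema3d, Sema3e and Sema3f have open circles throughout.

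Whether the CD26 difference itself had changed in tumors was tested as an interaction. Sema3a was the 1 member called, in WB1P, where the CD26+ against CD26- fold change was lower by 2.11 ± 0.48 on the log2 scale than in control (-2.11, FDR = 0.0241). Of all genes, 0.789% had a higher and 1.07% a lower difference in WB1P. This call was lost in the En1- libraries (FDR = 0.157) and without any 1 control pair (FDR = 0.0804 to 0.139) or mouse 93, 12 or 14 (FDR = 0.0522, 0.0665 and 0.0599). In WB1P-Myc the Sema3a value was -1.27 ± 0.47 (FDR = 0.282), and no member was called, where 0.277% and 0.885% of all genes were and 4 members, like 1611 of all 16601 genes, had an unadjusted p under 0.05. For Nrp2 the interaction was -1.56 ± 0.44 (FDR = 0.0766) in WB1P, called by DESeq2 (FDR = 0.0218), and -1.23 ± 0.43 (FDR = 0.245) in WB1P-Myc. For Nrp1 it was 1.16 ± 0.42 (FDR = 0.182) and 1.14 ± 0.41 (FDR = 0.261), not called in either. It was called without mouse 12 in WB1P (1.53, FDR = 0.0330) and in the En1- libraries in WB1P-Myc (1.52, FDR = 0.0400). Sema3g had -2.30 ± 0.98 in WB1P (FDR = 0.291), and with mouse as a block it was called (-2.25, FDR = 0.0254).

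Between the tumor types no member was called in either class. In CD26- CAFs, 0.205% of genes were higher and 0.307% lower in WB1P-Myc than in WB1P. Sema3a, at 9.40 to 28.8 against 18.3 to 55.8 CPM, had a fold change of -0.99 ± 0.29 (FDR = 0.116), and DESeq2 called it (-1.01, FDR = 0.0311). Sema3b had -0.50 ± 0.23 (FDR = 0.308). In CD26+ CAFs edgeR called 0 genes of any kind (0% higher and 0% lower), while 646 had an unadjusted p under 0.05, none of them a member, and DESeq2 called 9.

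Within a CD26 class, the En1+ and En1- libraries of a mouse can be set side by side, with 3 or 4 mice in each group, a pseudocount of 0.5 CPM and no test. Over the 9 members and 6 groups, all mice were lower in En1+ cells in 14 of the 54 combinations and all higher in 3. The combinations share mice, and the same counts were not taken over all genes. The 14 and 3 are therefore a description and no result about the members. Nrp2 was lower in the En1+ library in all 3 control pairs in both classes, with a median log2 difference of -0.44 in CD26- and -0.45 in CD26+ cells. It was also lower in all 4 WB1P CD26- mice (median -0.14) and all 3 WB1P-Myc CD26+ mice (-0.13). Nrp2 was higher in 1 of 3 WB1P CD26+ mice (median -0.09) and in 2 of 3 WB1P-Myc CD26- mice (0.20). Sema3f was also lower in En1+ cells in all 3 control pairs, by -0.39 and -0.41, and in all 3 WB1P-Myc CD26- mice (median -0.67). It was higher in 3 of 4 WB1P CD26- mice (median 0.10), 1 of 3 WB1P CD26+ mice (-0.02) and 2 of 3 WB1P-Myc CD26+ mice (0.44). In WB1P CD26- CAFs, Sema3c was lower in the En1+ library of all 4 mice (median -0.65), and Sema3b was higher there in all 4 (median 0.28) and in all 3 CD26+ mice (0.26). Sema3d was lower in all 3 WB1P-Myc CD26- mice (median -0.93). These genes were chosen after the values were seen.

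Over the 25 sums, the members fell into sets of like pattern, given here as a description of points that share mice and libraries. The sums span all 6 groups and were sorted by CD26, the product of Dpp4. Each r therefore includes the differences between CD26 classes and tissues given above. The Pearson r of log2 CPM was 0.94 between Sema3c and Sema3e, 0.90 between Sema3c and Sema3d, 0.86 between Sema3d and Sema3e and 0.81 between Sema3b and Sema3d. Nrp2 was opposed to Sema3b (r = -0.80), and the highest r of Nrp1 with another member was 0.44, with Sema3f. Of all genes tested, those most like Sema3c were 1700019D03Rik (r = 0.98), Cd55 (0.98) and Dpp4 (0.98). Sema3e was most like Ackr3 (0.96), Wnt10b (0.96) and Spsb4 (0.95), and Sema3d most like Pdgfd (0.95), Lrrn4cl (0.94) and Scara3 (0.94). Sema3g came with Carmil1 (0.94), Plekha6 (0.93) and Dipk1c (0.92), and Nrp2 with Rgs16 (0.94), Tns3 and Myo10 (0.94 and 0.93). Sema3b came with Creb5, Megf9 and Sec14l1 (0.90 each), Sema3a with Fat3, Gm53 (0.87 each) and Clstn2 (0.86), and Sema3f with Mex3a (0.86), Mpzl1 and Ubqln2 (0.85 each). For Nrp1 the closest were 9230112E08Rik, Myo5a and Washc5, at 0.75, 0.74 and 0.72.

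The plexins, through which semaphorins signal, were measured as 9 genes, of which 8 had enough counts to be tested. Between CD26 classes 0 of 8 were called in control, 2 were higher and 4 lower in CD26+ cells in WB1P, and 2 higher and 3 lower in WB1P-Myc. Of all genes, 2.67% were higher and 1.49% lower in control, 13.0% each in WB1P, and 9.29% and 10.7% in WB1P-Myc. Plxnb1, a receptor of class 4 semaphorins, differed most. It was lower in CD26+ than in CD26- CAFs by 2.97 ± 0.43 (FDR = 2.87e-05) in WB1P and by 3.92 ± 0.41 (FDR = 5.79e-07) in WB1P-Myc. It averaged 12.1, 29.8 and 48.6 CPM in CD26- cells of control, WB1P and WB1P-Myc, and 6.57, 3.37 and 2.84 CPM in CD26+ cells. Pericyte markers were higher in the same CD26- CAFs, and their part in the plexin differences between classes was not tested. Plxnd1, the receptor of Sema3e, was lower in CD26+ than in CD26- CAFs, with a fold change of -2.20 ± 0.23 (FDR = 7.87e-07) in WB1P and -2.13 ± 0.21 (FDR = 3.22e-07) in WB1P-Myc. Its mean was 162.5 CPM in CD26- and 93.2 CPM in CD26+ NFs, 146 and 29.2 CPM in WB1P, and 183 and 37.3 CPM in WB1P-Myc, and the interaction was called in both tumor types (-1.48, FDR = 0.0272 and -1.40, FDR = 0.0410). That call was lost in WB1P without pair 82/83 (FDR = 0.161), pair 44/46 (FDR = 0.149) or mouse 12 (FDR = 0.0596). In WB1P-Myc it was lost without any 1 control pair (FDR = 0.0696 to 0.259) and without mouse 21, 67, 95 or 23 (FDR = 0.0652 to 0.141).

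Against control, 3 of 8 plexins were higher and 2 lower in WB1P CD26- CAFs, 3 and 3 in WB1P-Myc CD26- CAFs, 1 and 2 in WB1P CD26+ CAFs and 2 and 3 in WB1P-Myc CD26+ CAFs. The shares of all genes were 17.6% and 17.8%, 19.1% and 17.5%, 17.4% and 16.1%, and 17.4% and 17.3% in the same order. Plxna4, a partner of Nrp1 in the receptor for Sema3a, changed most in all 4. It averaged 1.52 CPM ± 0.73 (SD, n = 3) in CD26- and 1.35 CPM ± 0.067 (n = 3) in CD26+ NFs, and 19.3 ± 10.8 (n = 5) and 42.5 ± 15.4 (n = 4) CPM in WB1P. In WB1P-Myc it averaged 15.5 ± 4.54 and 39.5 ± 17.2 CPM (n = 5 each). Its fold change was 3.78 ± 0.48 and 3.32 ± 0.48 in CD26- and 5.19 ± 0.52 and 4.95 ± 0.51 in CD26+ cells of WB1P and WB1P-Myc, with an FDR of at most 2.25e-05.

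All 8 VEGF ligands and receptors, which share the neuropilins, were tested. In CD26- CAFs 4 rose in WB1P, where 17.6% of all genes did, and 3 in WB1P-Myc, where 19.1% did, and 0 fell, against 17.8% and 17.5%. The placental growth factor gene Pgf led in both (6.39 ± 0.75 and 5.06 ± 0.71), followed by its receptor Flt1 (4.55 ± 0.66 and 4.50 ± 0.66) and by Flt4, the receptor of VEGF-C and VEGF-D (3.56 ± 0.58 and 3.24 ± 0.57). Flt1 averaged 8.83 CPM in CD26- NFs, 191 CPM in WB1P and 201 CPM in WB1P-Myc CD26- CAFs, with WB1P-Myc mice from 34.0 CPM upward. Flt4 was low throughout, at 0.312, 3.41 and 3.13 CPM on average in the same groups. In CD26+ CAFs 2 rose in WB1P and 1 in WB1P-Myc (17.4% of all genes in each), and 0 fell (16.1% and 17.3%). Flt1 was lower in CD26+ than CD26- CAFs by 6.40 ± 0.66 in WB1P and by 5.90 ± 0.57 in WB1P-Myc, and Vegfd, which encodes a ligand of lymphatic endothelium, was higher by 3.54 ± 0.49 and 2.46 ± 0.46. The pericyte markers again moved with the CD26- CAFs that held Flt1, and their part was not tested. Of the 4 proprotein convertases, 1 was higher in CD26+ cells in each tissue, and 1 was lower, in WB1P only. Of all genes, 2.67% were higher and 1.49% lower in control, 13.0% each in WB1P, and 9.29% and 10.7% in WB1P-Myc. The higher one was Pcsk6, by 4.25 ± 0.52 (FDR = 1.96e-05), 3.95 ± 0.40 (FDR = 5.58e-07) and 3.64 ± 0.39 (FDR = 7.35e-07) in control, WB1P and WB1P-Myc. It averaged 318 CPM in CD26+ and 17.2 CPM in CD26- NFs. Against control, 1 convertase was higher in CD26- CAFs of each tumor type, and in CD26+ CAFs 2 in WB1P and 1 in WB1P-Myc. The shares of all genes that were higher were 17.6%, 19.1%, 17.4% and 17.4% in this order. In all 4 comparisons 0 convertases were lower, where 17.8%, 17.5%, 16.1% and 17.3% of all genes were. In CD26+ CAFs Pcsk5 rose against control (1.35 ± 0.33 in WB1P and 1.13 ± 0.31 in WB1P-Myc, with an FDR of 0.0505 without pair 44/46).

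**Figure D4:**
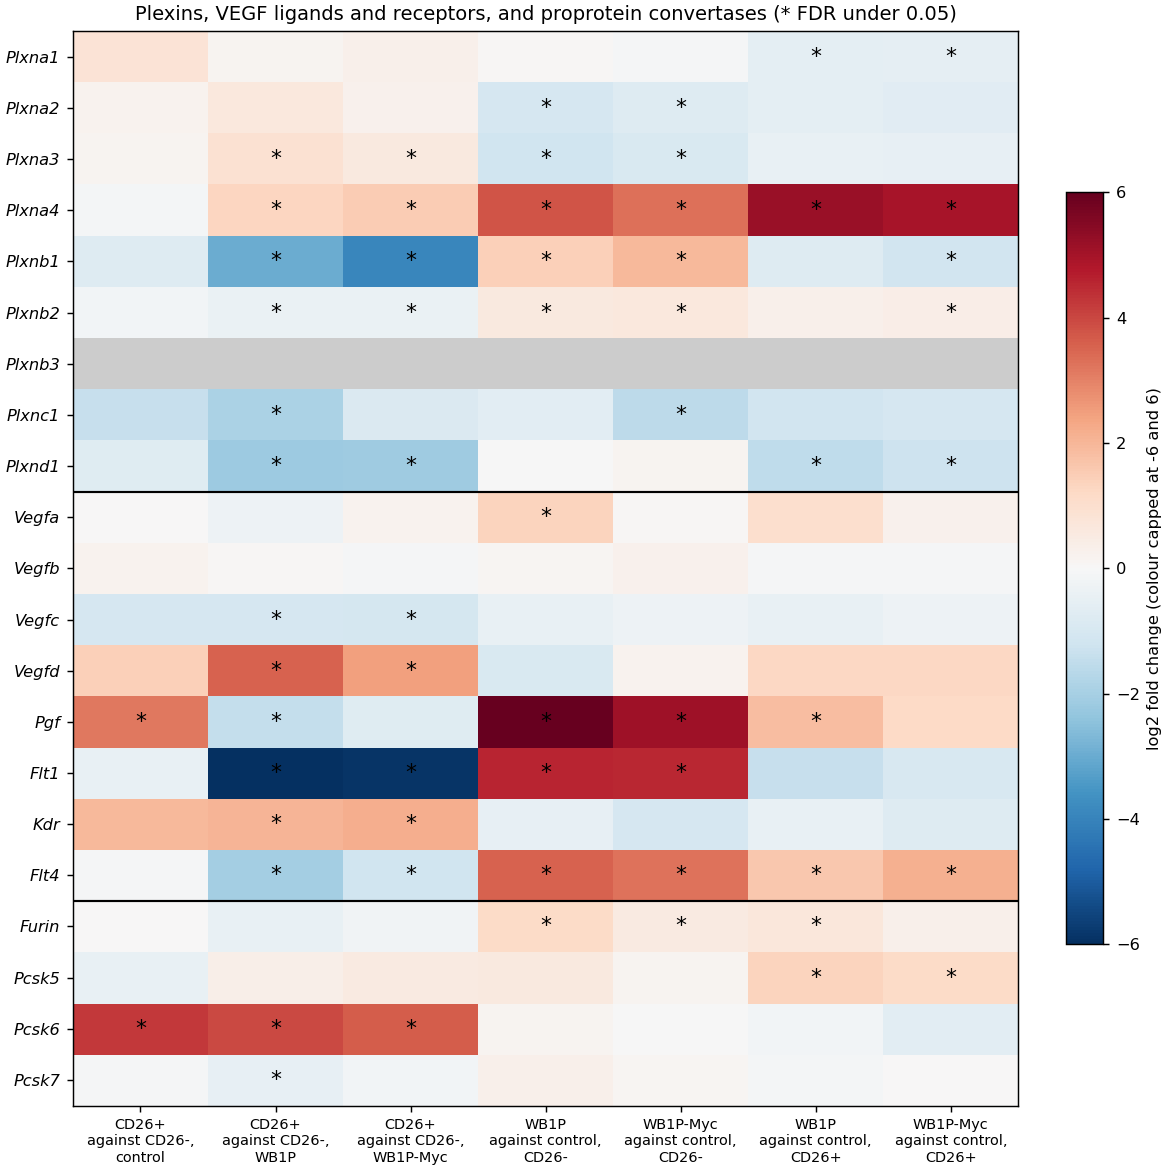
Colours give the log2 fold change (capped at -6 and 6) of plexins, VEGF ligands and receptors, and proprotein convertases, one row a gene, in the 3 CD26 comparisons and the 4 comparisons of tumor with control, with an asterisk where the FDR was under 0.05 and grey where the gene was not tested. Plxna4 is higher in all 4 tumor comparisons, Flt1 is higher in CD26- tumor cells and lower in CD26+ than CD26- tumor cells, and Pcsk6 is higher in CD26+ cells in all tissues.

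Of the 4 genes for adhesion co-receptors and their adaptor, 2 were higher than in control in CD26- CAFs of each tumor type. In CD26+ CAFs 3 were higher in WB1P and 2 in WB1P-Myc. The shares of all genes that were higher were 17.6%, 19.1%, 17.4% and 17.4% in this order. In these comparisons 0 of the 4 were lower, where 17.8%, 17.5%, 16.1% and 17.3% of all genes were. Chl1, a neural adhesion molecule that joins Nrp1 complexes, rose in all 4 comparisons with control. Its fold change was 7.44 ± 0.94 and 8.53 ± 0.98 in CD26- and 7.68 ± 0.92 and 7.52 ± 0.91 in CD26+ cells, from 0.532 and 2.37 CPM in CD26- and CD26+ NFs to means of 82.3 to 424 CPM. Of 10 cytoplasmic mediators, 0 differed between the CD26 classes in control, and 1 was higher and 3 lower in CD26+ cells in each tumor type. The shares of all genes that were higher and lower, 2.67% and 1.49% in control, 13.0% each in WB1P and 9.29% and 10.7% in WB1P-Myc, hold for these mediators and for the semaphorins that follow. Of 13 semaphorins of classes 4 to 7, 1 was lower in CD26+ NFs (Sema5a, -1.43 ± 0.38, with an FDR of 0.0661 to 0.269 without any 1 control pair), 2 were higher and 4 lower in CD26+ cells in WB1P, and 1 was higher and 6 lower in WB1P-Myc. Sema5b had the largest fold change in both, -7.24 ± 0.95 and -7.12 ± 0.79, with 19.1 and 42.3 CPM in CD26- and at most 0.287 CPM on average in CD26+ CAFs. Pericyte markers were also higher in these CD26- CAFs, and their part in the Sema5b difference was not tested.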

How the data were processed

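RNA of 44 libraries of sorted mouse fibroblasts was sequenced from stranded mRNA libraries, and the table that the authors deposited holds raw counts per gene, without normalization. The submitters' processing notes name HISAT2 2.2.1 and GRCm38. The counter, its strand setting and the annotation release are not given in the sources used here, and 54820 of the 55140 gene identifiers shared with GENCODE M21 have its coordinates. The 1 row naming no gene held 0 counts. Library totals were 5790599 to 15240328 counts (median 12818093), and low counts are given beside the values they limit.

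Counts were summed per mouse (or numbered control pair) and CD26 class into 25 sums, and every mouse is then 1 replicate of a class. The labels do not say how cells of a control pair were combined, and p-values measure the spread between these sums. In R 4.3.3, edgeR 4.0.16 (filterByExpr, TMM factors 0.78 to 1.15, glmQLFit and glmQLFTest over 6 groups) gave fold changes, with SE from the F statistic, and Benjamini-Hochberg FDRs over 16601 genes. DESeq2 1.42.0 served as an alternative, and the study's own rule, an absolute log2 fold change over 2, as another. Tables and figures were made in Python. Simulated counts with 200 genes changed 4-fold gave 180, 159 and 177 recovered and 12, 5 and 10 false calls, for WB1P against control in CD26- cells, CD26+ against CD26- control cells and WB1P-Myc against WB1P in CD26+ cells. The simulated sums were drawn independently, without the pairing of the CD26 classes of a mouse. They therefore do not give the error rate of comparisons between classes that share mice.

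Both classes of a mouse come from the same animal, and their deviations from the group means correlated with r = 0.239 to 0.669 (12 pairs), so mouse as a block was an alternative. All 63 pairs of libraries of a group differed beyond counting noise (lowest chi-square per degree of freedom 14.8). CPM used summed totals, and CPM per kb the exon length in GENCODE M21. Named genes were the 9 members, called pathway genes in order of fold change (at most 6 a list), and the 3 genes most correlated with each member (log2 CPM, prior count 2). The members and lists were chosen with earlier results of these data known.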

Additional observations from a re-analysis of the deposited data

Results flagged for a closer look

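In 36 groups of 4 or 5 mice, a gap at the end of the range was large by Dixon's criterion in 3, and chance gives about 1 in 20. Sema3d was 30.89 CPM in the CD26- cells of WB1P mouse 12, where the next mouse had 17.34 CPM. Sema3e was 31.58 CPM in the CD26+ cells of WB1P-Myc mouse 21, where the next had 14.62 CPM. Sema3g was 1.847 CPM in the CD26+ cells of WB1P mouse 35, where the other mice had at most 0.35 CPM. The CD26 difference of Sema3a differed between WB1P and control by -2.11 on the log2 scale, by the test of the interaction. Sema3a overlapped between the classes of control and was lower in CD26+ cells of all 4 WB1P mice with both classes.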

How the results depend on the processing

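The 35 called results of members gave 449 values under the alternatives, of which 403 kept their direction and their side of the threshold, 46 lost the call and 0 turned direction, and 23 results held under every alternative run. Some uncalled results turned direction. With 1 replicate left out at a time, the fold change of Sema3d in WB1P-Myc against control CD26- cells ran from -1.23 to 0.00, the latter without pair 49/52. Between CD26 classes it ran from -0.07 to 0.15 for Sema3a and from -0.15 to 0.36 for Sema3g in control, and for Nrp1 from -0.18 to 0.34 in WB1P and from -0.13 to 0.10 in WB1P-Myc. In the En1+ libraries Sema3a of control was -0.02, and in the En1- libraries Nrp1 was 0.10 in WB1P and 0.23 in WB1P-Myc.

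With an absolute log2 fold change over 2 also required, 2 and 1 members were called against control in CD26- cells of WB1P and WB1P-Myc, 1 and 1 in CD26+ cells, and 4, 6 and 3 between the CD26 classes of control, WB1P and WB1P-Myc. Of all 16601 genes, 1908, 1766, 1303, 1231, 362, 1265 and 1089 were called in the same order. Fitting the control groups alone left 3 members called between their CD26 classes, and leaving out a pair gave 2 to 5. DESeq2 called 1 member between tumor types in CD26- cells, where it called 396 of all genes and edgeR 85. For the CD26 difference of WB1P against control DESeq2 called 2 members, and 655 of all genes where edgeR called 309. There the En1- libraries gave 0 members and the replicate block 2 (Sema3a, -2.10, and Sema3g, -2.25), and leaving out a replicate gave 0 to 1. For the CD26 difference of WB1P-Myc the En1- libraries gave 1. Calls over all genes are not given for fits other than DESeq2 and the main one. With mouse as a block Sema3g was also called between the CD26 classes of WB1P-Myc (-1.13), and no other call of a member changed under the block. The cause of these changes was not tested beyond what each alternative leaves out. With 3 control pairs, small differences in NFs could not be seen, and Sema3e in CD26- NFs and Sema3g in CAFs rest on few counts.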
